A study of Homo sapiens with 6 samples.

Results

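22Rv1 is an established human prostate carcinoma cell line. Drug_CN27 and Drug_0120 are small molecules directed, per the series title and design, at the linker histone variant H1-10, whose gene is listed as H1FX. The direct comparison of the compounds took the 4 treated libraries of 6 in all, and the 13335 of 20297 genes with at least 1 TPM (transcripts per 1000000, a level already divided by transcript length) in at least 2 of those 4. The groups were Drug_CN27, Drug_0120 (called 0120-0018 in the treatment protocol) and vehicle, each with 2 libraries of 22Rv1 cells, and vehicle is given for reference only. Each compound was used at its own IC50; the sources used here state neither the concentration nor the duration, and whether doses and times match is therefore unknown. No structure is given for either code name.

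Linker histones bind the DNA where it enters and leaves the nucleosome and help to compact chromatin, and H1-10 is a variant whose gene is expressed independently of DNA replication. Treated tumour cells often switch on stress programmes that can be read from RNA. ATF4 drives amino acid synthesis and import when amino acids run short or the endoplasmic reticulum is stressed, AP-1 factors and their immediate early partners answer kinase signalling, p53 answers DNA damage and other stress, and metallothioneins answer free metal ions.

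All differences below are Drug_CN27 minus Drug_0120 on the log2(TPM + 1) scale, with the standard error from limma, and understate the change of low genes. The compounds gave separate profiles. With Drug_CN27, 6905 genes were higher (51.8% of those tested) and 3196 were lower (24.0%) than with Drug_0120 at a limma adjusted p under 0.05. At least 2-fold differences were counted for 2410 genes that were higher (18.1%) and 540 that were lower (4.05%). The 2 libraries of one compound did not overlap those of the other for 11627 genes (87.2% of those tested), so a lack of overlap between the compounds was the usual case. A further 3234 genes were not called, and for 3160 of them the 95% interval of the difference lay within 2-fold. Among the genes tested, 702 reached 1 TPM in both libraries of Drug_CN27 and in neither of Drug_0120, and 237 the reverse; these passed the filter through the compound where they were high and so had to differ.

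Much of that imbalance was a shift of the whole distribution. The median gene differed by 0.26, being at 0.16 against vehicle with Drug_CN27 and at -0.09 with Drug_0120. Genes outside the table held 19.0% ± 0.857 of TPM with Drug_CN27, 28.4% ± 0.604 with Drug_0120 and 18.7% ± 0.829 with vehicle (SD, n = 2 each). With a median-of-ratios scaling, which sets the median gene equal, 5094 genes were higher and 5125 lower. This scaling moved the differences down, so it was no test of the 3196 genes called lower before, all of which stayed so. Of the 6905 genes called higher before, 5094 stayed so. Transcript GC content moved with the difference: its median was 0.14 in the fifth of genes with the least GC and 0.49 in the fifth with the most, and a correction for GC gave 5089 higher and 5570 lower. What part the rest of the RNA or GC content has in single genes was not tested. Under TPM and 4 other scalings (median of ratios, quantile, equal table sums and GC correction), 4391 genes were higher and 3147 lower in every case, 1130 and 527 of them by at least 2-fold. Each list median below is therefore stated as its distance from that of all genes tested (the relative median).

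**Figure D1:**
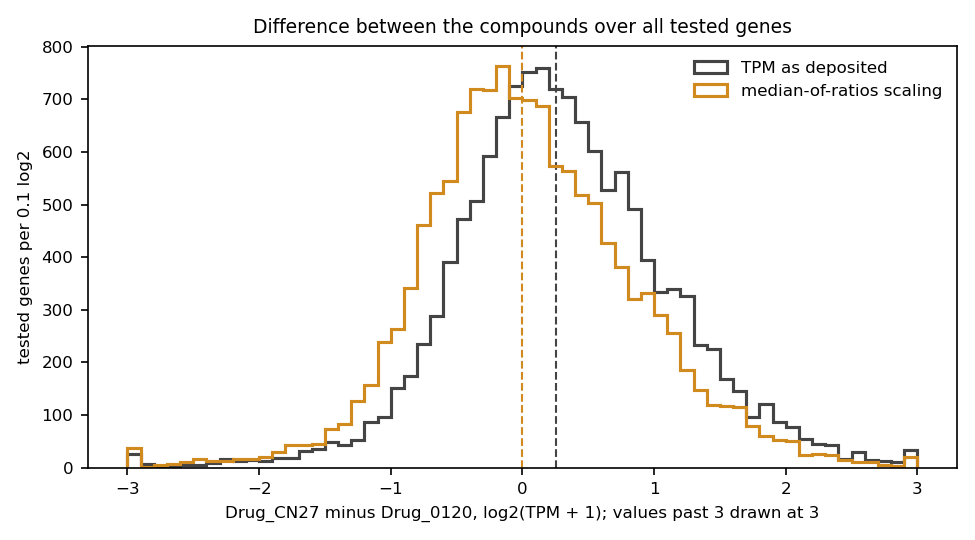
Histogram of the difference of the tested genes, Drug_CN27 minus Drug_0120 in log2(TPM + 1), in bins of 0.1, for TPM as deposited and after median-of-ratios scaling, with values past 3 drawn at 3 and dashed lines at the medians. The bulk of the deposited values lies right of 0 (median 0.26), and the scaled ones are centred on it.

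Defining transcripts of prostate epithelium were present. All 10 markers reached 1 TPM in both libraries of Drug_CN27 and of vehicle and 9 in both of Drug_0120, where KLK3 stayed below it, with summed levels of 2979 to 2995 TPM with Drug_CN27, 1636 to 1647 TPM with Drug_0120 and 2612 to 2622 TPM with vehicle. No basal or endothelial marker reached 1 TPM, CD3E was listed at 0 and PTPRC stayed below 1 TPM. Replicates correlated across genes at r = 0.994 with Drug_CN27, 0.996 with Drug_0120 and 0.996 with vehicle. In bulk RNA, fewer cells of a kind and less RNA per cell cannot be told apart.

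The transcript of the named target differed between the compounds. H1FX had 401 and 433 TPM with Drug_CN27, 176 and 191 TPM with Drug_0120 and 450.4 and 464 TPM with vehicle. Both libraries of Drug_0120 lay below the other 4, and those of Drug_CN27 lay close under vehicle. The difference was 1.18 ± 0.064 (limma adjusted p = 6.05e-07), or 0.89 with median-of-ratios scaling and 0.57 after the GC correction. These values are of messenger RNA, so they do not measure whether either compound acts on the H1-10 protein.

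The other measured linker histones split. H1F0, the replacement linker histone of slowly dividing cells, had 605 and 624 TPM with Drug_CN27, 105 and 104 TPM with Drug_0120 and 382 and 373 TPM with vehicle (difference 2.55 ± 0.052). It lay above vehicle with Drug_CN27 and below it with Drug_0120, without overlap. HIST1H1C and HIST1H1E, of the histone cluster, were lower with Drug_CN27 (differences of -0.93 ± 0.073 and -1.51 ± 0.10). Of the 10 linker histone genes in the table, 4 were tested, 2 of them higher and 2 lower in every scaling.

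The largest differences were of genes that Drug_0120 raised far above vehicle and Drug_CN27 did not. MMP1, a collagenase, had 0.442 and 0.654 TPM with Drug_CN27, 213 and 212 TPM with Drug_0120 and 0.428 and 0.242 TPM with vehicle (difference -7.11 ± 0.11, limma adjusted p = 5.85e-09). ARC, a cytoskeletal protein induced by neuronal activity, had 0.594 and 0.819, 144 and 149.9 and 1.34 and 0.892 TPM in the same order of groups (difference -6.44 ± 0.12). Both genes were near the floor in all 4 libraries without Drug_0120 and abundant in the 2 with it. CGA, the common subunit of the glycoprotein hormones (-5.77 ± 0.12), and the small GTPase RRAD (-4.37 ± 0.13) had the same pattern. MMP1, ARC and CGA were under 1 TPM in both libraries of Drug_CN27. They passed the filter through Drug_0120 alone and so had to differ. GADD45B, a stress gene, differed by -4.63 ± 0.076 from a higher base, with 23.5 and 26.1 TPM with Drug_CN27, 605 and 672 TPM with Drug_0120 and 24.9 and 25.1 TPM with vehicle.

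In MMP10 and CES1 Drug_CN27 also lay above vehicle, by much less than Drug_0120. MMP10, stromelysin 2, had 5.68 and 5.57 TPM with Drug_CN27, 318 and 324 TPM with Drug_0120 and 0.840 and 1.35 TPM with vehicle, so that the libraries fell into 3 separate levels (difference -5.60 ± 0.11). The carboxylesterase CES1 had 0.924 and 0.723, 94.1 and 99.97 and 0.131 and 0.0780 TPM in the same order (difference -5.75 ± 0.10). DIO3, which inactivates thyroid hormone, had 0.176 and 0.206 TPM with Drug_CN27 and 19.8 and 19.3 TPM with Drug_0120, and was listed at 0 with vehicle. ZNF593 was listed at 0 in both libraries of Drug_CN27, with 9.17 and 26.1 TPM with Drug_0120 and 0 and 2.45 TPM with vehicle, and its replicates differ too much for a size to be read. CES1, DIO3 and ZNF593 likewise passed the filter through Drug_0120 alone and so had to differ. KRTAP4-4 and USP17L2, which have close copies and are uncertain, were also among the 12 largest negative differences (-3.86 ± 0.11 and -4.02 ± 0.097).

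In the 12 largest positive differences Drug_0120 lay below vehicle. HSPB6, a small heat shock protein, had 502 and 529.996 TPM with Drug_CN27, 24.3 and 27.4 TPM with Drug_0120 and 379 and 391 TPM with vehicle (difference 4.27 ± 0.068, limma adjusted p = 5.85e-09). UHRF1, which brings the maintenance DNA methyltransferase to replicated DNA, had 31.6 and 34.8 TPM with Drug_CN27, 1.72 and 2.24 TPM with Drug_0120 and 48.8 and 45.995 TPM with vehicle (difference 3.52 ± 0.10). DHRS2, a short-chain dehydrogenase, had 309.98 and 326, 30.6 and 29.8 and 284 and 304 TPM in that order (difference 3.35 ± 0.060). In each, both libraries of Drug_0120 lay far below the other 4. With Drug_CN27, HSPB6 lay above vehicle, UHRF1 below it and DHRS2 next to it.

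SORBS3, an adaptor of cell adhesions (3.47 ± 0.074), the corepressor TLE2 (3.38 ± 0.14), the membrane phosphoprotein PALM (3.35 ± 0.14), the mitochondrial calcium-binding protein EFHD1 (3.36 ± 0.11) and NNT, which makes NADPH in mitochondria (3.33 ± 0.11), followed that pattern. JMJD7-PLA2G4B, a readthrough gene that shares exons with its neighbours and is uncertain, differed by 3.61 ± 0.17. PALM, EFHD1, NNT and JMJD7-PLA2G4B were under 1 TPM in both libraries of Drug_0120. They passed the filter through Drug_CN27 alone and so had to differ. PCK2, SAMD11 and CLGN complete these 12, and there Drug_CN27 also lay well above vehicle. In PCK2 most of the difference was on that side, the changes from vehicle being 3.36 with Drug_CN27 and -0.37 with Drug_0120. SAMD11 had 59.2 and 64.9 TPM with Drug_CN27, 2.93 and 3.49 TPM with Drug_0120 and 16.1 and 18.6 TPM with vehicle, and CLGN, a chaperone of the endoplasmic reticulum, had 74.7 and 65.6, 5.59 and 5.57 and 22.5 and 23.3 TPM.

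**Figure D2:**
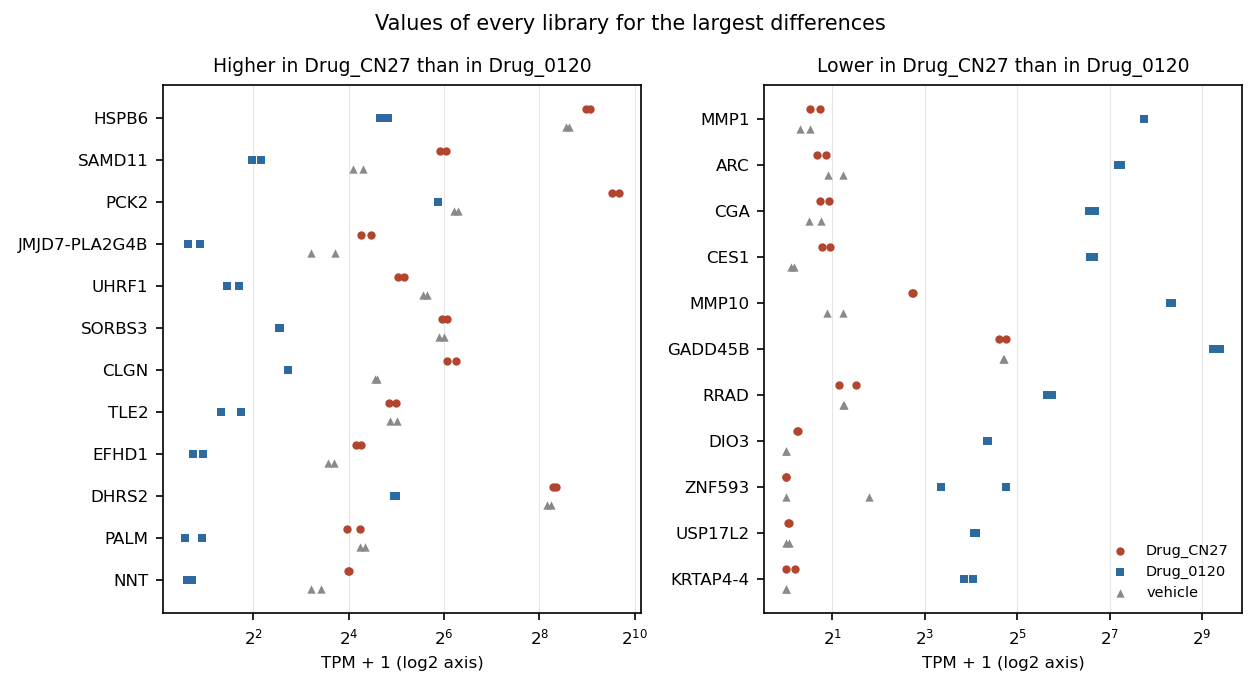
Level of every library, as TPM + 1 on a log2 axis, for the 12 genes with the largest positive (left) and 11 of the 12 with the largest negative (right) difference; circles are Drug_CN27, squares Drug_0120 and triangles vehicle. In the left panel Drug_0120 lies below the other groups, as for HSPB6 (24.3 and 27.4 TPM), though close under vehicle for PCK2. In the right panel Drug_0120 lies apart above, as for MMP1 (213 and 212 TPM).

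The gene lists were chosen with earlier results known, so their counts describe where the compounds differ and are read beside the 51.8% higher and 24.0% lower of all genes tested. The widest positive medians were in ATF4 targets, cell cycle genes and fatty acid oxidation. The widest negative ones were in metallothioneins, immediate early genes, p53 targets and clustered histones.

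**Figure D3:**
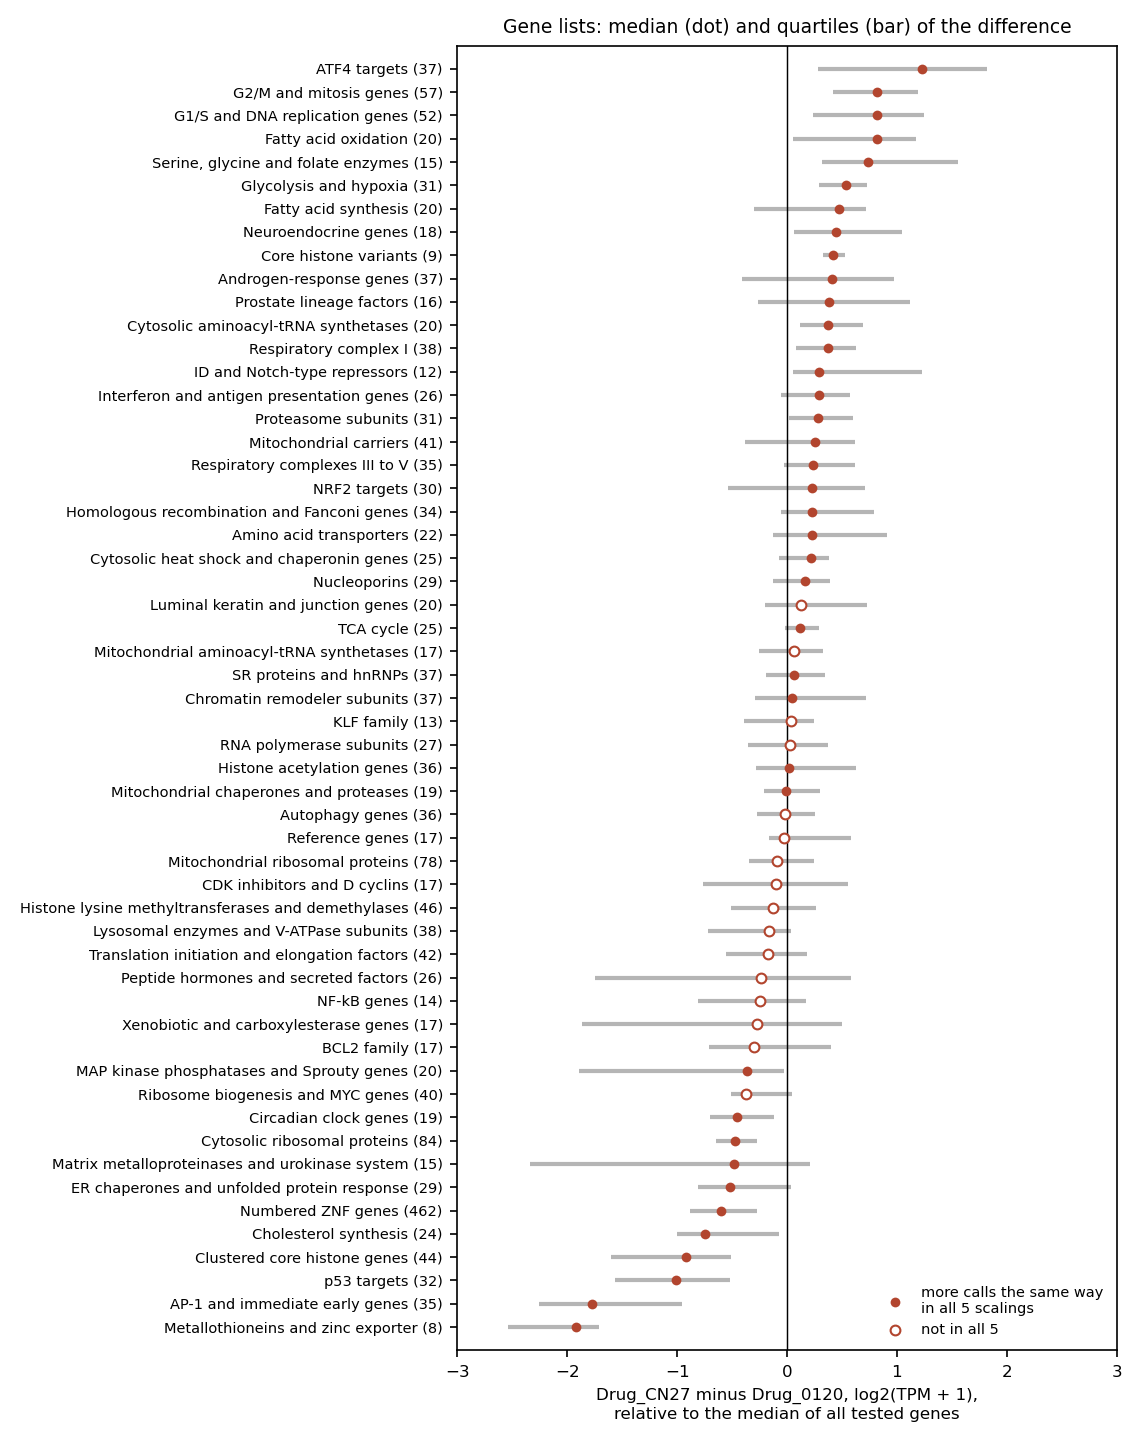
For each gene list with its number of tested members, the median (dot) and quartiles (bar) of the difference, Drug_CN27 minus Drug_0120 in log2(TPM + 1), relative to the median of all tested genes; open dots mark lists whose majority of calls was not the same in all 5 scalings. ATF4 targets stand highest (1.23) and metallothioneins with the zinc exporter lowest (-1.92).

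Targets of ATF4 were higher with Drug_CN27 as a group, although ATF4 itself was not called. ATF4 had 1119 and 1198 TPM with Drug_CN27, 1198 and 1235 TPM with Drug_0120 and 458 and 475 TPM with vehicle; both compounds lay above vehicle, and their difference was -0.070 ± 0.058 (95% interval -0.20 to 0.062). It was called lower with Drug_CN27 after median-of-ratios scaling (-0.36), equal sums (-0.25) and the GC correction (-0.41). Of 39 target genes listed, 37 were tested, 2 of which passed the filter through Drug_CN27 alone. Among the 37, 31 were higher with Drug_CN27, 24 of them by at least 2-fold, and 5 were lower (relative median 1.23); the counts were 30 and 5 with the median gene set equal and 27 and 6 after the GC correction.

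The widest differences in the list were of PCK2, JDP2, PSPH, PHGDH and CHAC1. PCK2, the mitochondrial phosphoenolpyruvate carboxykinase, had 735 and 816 TPM with Drug_CN27, 58.04 and 57.2 TPM with Drug_0120 and 72.5 and 77.01 TPM with vehicle (difference 3.73 ± 0.066). JDP2, a transcription factor of the AP-1 family that was among those tested through Drug_CN27 alone, had 14.5 and 15.7 TPM with Drug_CN27, 0.356 and 0.945 TPM with Drug_0120 and 1.66 and 2.43 TPM with vehicle (difference 3.31 ± 0.18). PCK2 and JDP2 were above vehicle with Drug_CN27 and below it with Drug_0120. CHAC1, which degrades glutathione, had 379 and 401 TPM with Drug_CN27, 65.3 and 63.6 TPM with Drug_0120 and 7.55 and 6.95 TPM with vehicle (difference 2.58 ± 0.066). PHGDH, the first enzyme of serine synthesis, had 1136 and 1287, 192 and 209 and 323 and 332 TPM in the same order (difference 2.59 ± 0.073). CHAC1 was above vehicle with both compounds, its mean TPM being 6.05 times as high with Drug_CN27 as with Drug_0120, whereas PHGDH was above vehicle with Drug_CN27 and below it with Drug_0120.

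The 5 targets that were lower with Drug_CN27 were PPP1R15A, which directs dephosphorylation of the initiation factor eIF2, at 137 and 142 TPM with Drug_CN27, 328 and 335 TPM with Drug_0120 and 30.6 and 32.2 TPM with vehicle (-1.24 ± 0.057), SLC3A2 (-0.70 ± 0.057), a subunit of amino acid transporters, the stress-induced SESN2 (-0.53 ± 0.058), and the transcription factors ATF3 (-0.43 ± 0.10) and DDIT3 (-0.31 ± 0.073). All 5 lay above vehicle with both compounds. SESN2 is also on the p53 list, and ATF3 on the immediate early list. CTH was not called (95% interval -0.086 to 0.49).

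**Figure D4:**
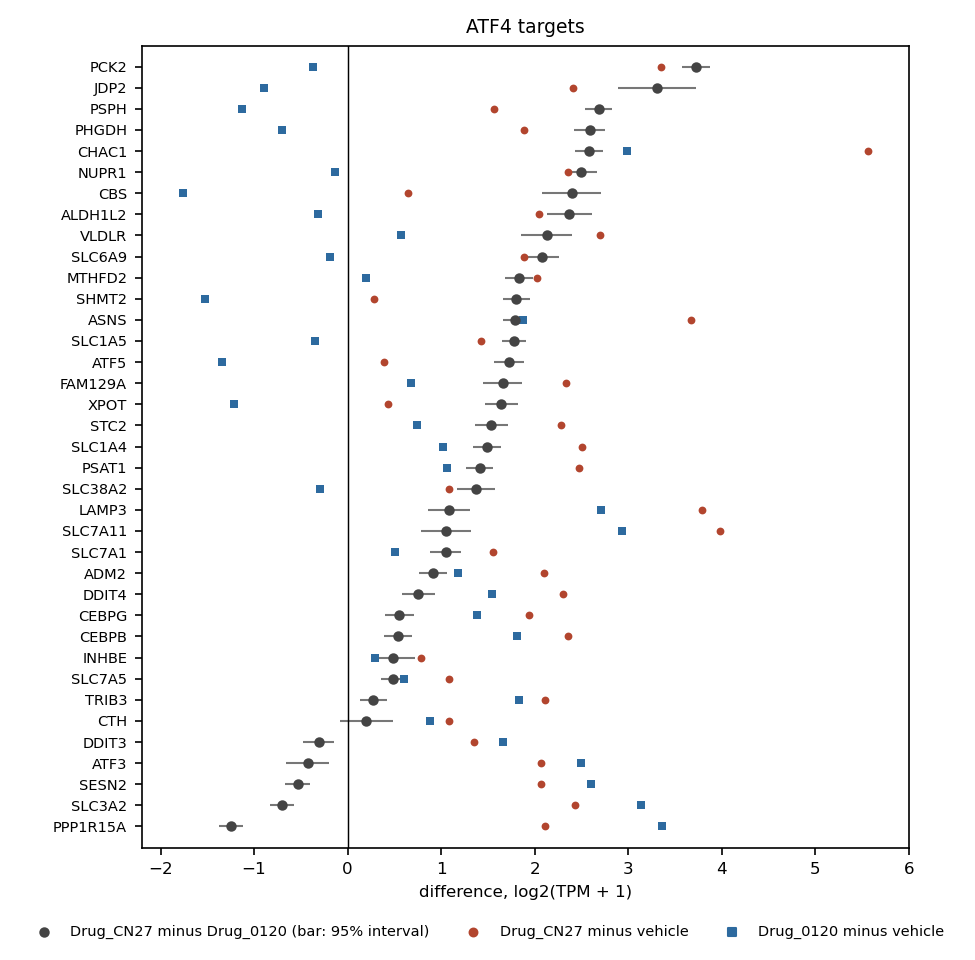
The 37 tested ATF4 targets, each with its difference between Drug_CN27 and Drug_0120 and its 95% interval, and with the change of each compound from vehicle, all in log2(TPM + 1). From PCK2 at the top (3.73) to PPP1R15A at the foot (-1.24), every change from vehicle with Drug_CN27 is positive, while those with Drug_0120 lie on both sides of 0.

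The bases upstream of CHAC1 and ASNS are shown because both genes separated the compounds and each holds a match to an ATF4 composite element. ASNS, asparagine synthetase, had 2669 and 2523 TPM with Drug_CN27, 749.6 and 751 TPM with Drug_0120 and 202 and 204 TPM with vehicle (difference 1.79 ± 0.054). The sequences are the 250 bases before the RefSeq start (GRCh38.p14), 5′ to 3′ on the strand of the gene, with matches to TGATGNAA on either strand in capitals; CHAC1 is chr15:40953221-40953470 (plus strand) and ASNS is chr7:97872409-97872658 (minus strand).
CHAC1: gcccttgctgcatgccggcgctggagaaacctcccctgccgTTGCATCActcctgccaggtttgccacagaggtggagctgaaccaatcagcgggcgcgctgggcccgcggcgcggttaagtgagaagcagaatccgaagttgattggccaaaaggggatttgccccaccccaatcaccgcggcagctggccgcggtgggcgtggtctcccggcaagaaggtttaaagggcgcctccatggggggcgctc
ASNS: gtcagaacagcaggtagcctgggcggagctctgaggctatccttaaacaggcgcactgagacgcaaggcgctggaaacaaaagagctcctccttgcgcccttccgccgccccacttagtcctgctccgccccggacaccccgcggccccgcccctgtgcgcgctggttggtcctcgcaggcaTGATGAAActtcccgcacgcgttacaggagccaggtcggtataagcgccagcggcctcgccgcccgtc
The match lies 201 bases before the start in CHAC1 and 60 bases before it in ASNS. These letters occur in 3.14% of 35114 such RefSeq windows and in 1.6% of the 15484 windows of genes tested. Tested ATF4 targets had 48 windows, of which 6 held them (12.5%). These belong to 6 of the 30 targets that have any window (ASNS, ATF3, CEBPG, CHAC1, JDP2 and SLC1A5). A match is a description of the sequence and not evidence of binding, and the 6 include ATF3, which was lower with Drug_CN27.

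Serine and one-carbon enzymes, amino acid transporters and cytosolic tRNA synthetases were mostly higher with Drug_CN27, while mitochondrial tRNA synthetases had no majority that held in every scaling. Of 15 serine, glycine and folate enzymes tested, 13 were higher with Drug_CN27 and 1 was lower (relative median 0.74). PSPH, which completes serine synthesis, had 144 and 139 TPM with Drug_CN27, 20.8 and 21.3 TPM with Drug_0120 and 45.7 and 48.6 TPM with vehicle, and SHMT2, which splits serine in mitochondria, had 507 and 563, 153 and 151 and 450.1 and 429.5 TPM. MTHFD2, of the mitochondrial folate cycle, was higher by 1.83 ± 0.066. Of 20 cytosolic aminoacyl-tRNA synthetases, which load amino acids onto tRNA, 18 were higher and 0 lower at that threshold (14 and 2 with the median gene set equal). MARS had 363 and 394 TPM with Drug_CN27, 139 and 146 TPM with Drug_0120 and 167 and 165 TPM with vehicle, and WARS and IARS differed by 1.35 ± 0.053 and 1.23 ± 0.060. Of 17 mitochondrial aminoacyl-tRNA synthetases, 10 were higher and 3 lower (relative median 0.066), but 5 and 6 with the median gene set equal and 4 and 5 after the GC correction.

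Among 22 amino acid transporters tested, 2 of them passing the filter through Drug_CN27 alone, 16 were higher and 4 lower (relative median 0.22; 11 and 7 after the GC correction). The neutral amino acid transporter SLC1A5 had 528 and 563 TPM with Drug_CN27, 156 and 161 TPM with Drug_0120 and 202 and 202 TPM with vehicle, and the glycine transporter SLC6A9 had 49.7 and 52.5, 11.6 and 10.98 and 13.2 and 12.9 TPM. In both, Drug_CN27 lay well above vehicle and Drug_0120 a little below it. The 4 lower transporters were SLC36A1, SLC3A2, SLC6A6 and SLC7A6. SLC1A3, a glutamate transporter, was below vehicle with both compounds, and was at 8.03 and 7.82 TPM with Drug_CN27 and 0.606 and 0.485 TPM with Drug_0120 (difference 2.53 ± 0.094).

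Proliferation genes were mostly below vehicle with both compounds, and on the median further below it with Drug_0120. Each median change from vehicle is stated here as its distance from that of all genes tested. It was -0.97 with Drug_CN27 and -1.75 with Drug_0120 for the tested G1/S genes, and -1.67 and -2.50 for the G2/M genes. Of 52 G1/S and DNA replication genes, 49 were higher with Drug_CN27 than with Drug_0120 and 1 lower (relative median 0.82; 40 and 3 with the median gene set equal), 1 of them tested through Drug_CN27 alone. TK1, thymidine kinase, had 139 and 166 TPM with Drug_CN27, 16.1 and 17.4 TPM with Drug_0120 and 164 and 174 TPM with vehicle (difference 3.11 ± 0.089). RRM2, of ribonucleotide reductase, had 78.2 and 74.8, 17.1 and 16.2 and 169.5 and 163 TPM, and the transcription factor E2F1 52.97 and 55.99, 13.98 and 14.04 and 78.98 and 81.6 TPM. TK1 with Drug_CN27 overlapped vehicle, whereas RRM2 and E2F1 with Drug_CN27 lay between the other groups without overlap. RFC3 was the lower member (-0.21 ± 0.079).

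Of 57 G2/M and mitosis genes, 50 were higher with Drug_CN27 and 3 lower (relative median 0.82; 46 and 5 with the median gene set equal). CDC20, the activator of the anaphase-promoting complex, had 133 and 148 TPM with Drug_CN27, 30.3 and 30.8 TPM with Drug_0120 and 491 and 514 TPM with vehicle (difference 2.16 ± 0.066), and the kinesin KIF20A had 24.3 and 24.9, 3.65 and 2.99 and 93.7 and 89.2 TPM. In both genes Drug_CN27 lay between the other groups without overlap. The kinesin KIF20B was the exception in size, with 1.29 and 1.19 TPM with Drug_CN27, 12.9 and 11.8 TPM with Drug_0120 and 2.12 and 1.91 TPM with vehicle (difference -2.57 ± 0.10), and CDC25B and ECT2 were the other lower members (-1.16 ± 0.060 and -0.42 ± 0.086). CCNB1, cyclin B1, had 26.1 and 24.3 TPM with Drug_CN27, 23.2 and 23.8 TPM with Drug_0120 and 246 and 246 TPM with vehicle, and the difference between the compounds was not called (95% interval -0.051 to 0.24).

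MKI67, the proliferation marker Ki-67, had 13.5 and 12.4 TPM with Drug_CN27, 6.05 and 5.32 TPM with Drug_0120 and 64.01 and 57.1 TPM with vehicle (difference 1.06 ± 0.096). MYC had 89.5 and 97.9, 69.4 and 71.7 and 232 and 226 TPM; its difference of 0.40 ± 0.062 turned to -0.023 after the GC correction, so no direction between the compounds is read. Of 34 homologous recombination and Fanconi genes, 25 were higher with Drug_CN27 and 5 lower, with FANCI at 39.2 and 37.95 TPM with Drug_CN27, 9.95 and 9.10 TPM with Drug_0120 and 75.5 and 71.1 TPM with vehicle. The 5 lower members were CHEK2, EME1, MRE11, PALB2 and SLX4.

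Genes of prostate identity were mostly higher with Drug_CN27 than with Drug_0120. KLK3, which encodes prostate-specific antigen, was low throughout, at 2.77 and 2.46 TPM with Drug_CN27, 0.850 and 0.281 TPM with Drug_0120 and 7.71 and 6.12 TPM with vehicle (difference 1.23 ± 0.18). Of 37 androgen-response genes tested, 3 passing the filter through Drug_CN27 alone and 1 through Drug_0120 alone, 25 were higher with Drug_CN27 and 8 lower (relative median 0.41; 22 and 12 after the GC correction). The prostate kallikrein KLK4 had 172 and 193 TPM with Drug_CN27, 34.7 and 34.1 TPM with Drug_0120 and 192 and 204 TPM with vehicle. In KLK4, Drug_CN27 overlapped vehicle and Drug_0120 lay well below it. The androgen-response list as a whole was below vehicle with both compounds on the median. Relative to that of all genes tested, its median change from vehicle was -0.65 with Drug_CN27 and -0.81 with Drug_0120.

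Of 16 prostate lineage factors, 1 of them tested through Drug_CN27 alone, 11 were higher with Drug_CN27 and 2 lower (relative median 0.38; 8 and 5 with the median gene set equal). GATA2, a zinc finger transcription factor, had 134 and 149 TPM with Drug_CN27, 32.2 and 38.5 TPM with Drug_0120 and 66.7 and 69.1 TPM with vehicle (difference 1.97 ± 0.091), and the ETS factor ETV1 and the epithelial factor GRHL2 differed by 1.82 ± 0.099 and 1.20 ± 0.065. GATA2 lay above vehicle with Drug_CN27 and below it with Drug_0120. NR3C1, the glucocorticoid receptor, and TFAP2A were lower (-0.58 ± 0.11 and -0.75 ± 0.076). Of 18 neuroendocrine genes, which mark a treatment-resistant form of prostate cancer, 15 were higher with Drug_CN27 and 1 lower (12 and 4 after the GC correction), led by ENO2 (2.19 ± 0.063), also a glycolytic enzyme, STMN1 (1.61 ± 0.066), also a proliferation gene, SEZ6 (1.92 ± 0.090) and CELF3 (1.61 ± 0.084). SEZ6 had 13.1 and 13.3 TPM with Drug_CN27, 2.57 and 2.93 TPM with Drug_0120 and 18.99 and 19.01 TPM with vehicle, and so was highest in vehicle. SCG3 was lower (-0.66 ± 0.088).

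The ID proteins, which block basic helix-loop-helix factors and are induced by BMP signalling, all 4 separated the compounds. ID1 had 1080.4 and 1180.0 TPM with Drug_CN27, 259.8 and 286 TPM with Drug_0120 and 249.96 and 286 TPM with vehicle (difference 2.05 ± 0.082), and ID3 had 831 and 902, 198 and 209.5 and 308 and 335 TPM (difference 2.08 ± 0.067). ID2 and ID4 differed by 1.30 ± 0.081 and 2.17 ± 0.074. With Drug_CN27 all 4 were above vehicle, and with Drug_0120 ID3 and ID4 were below it. Of the 12 ID and Notch-type repressors tested, 1 through Drug_CN27 alone, 9 were higher and 1, BHLHE40, was lower (-2.31 ± 0.096); the counts were 7 and 2 after the GC correction. In luminal keratin and junction genes the majority depended on the scaling (13 higher and 2 lower of 20, but 9 and 9 after the GC correction), yet the tight junction gene CLDN7 (759 and 809.6 TPM with Drug_CN27, 129 and 130.1 TPM with Drug_0120 and 219.6 and 225 TPM with vehicle) and the keratin KRT19 (2.70 ± 0.074) were higher in every scaling, and the epithelial factor ELF3 was lower in every scaling (-2.09 ± 0.057).

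Central metabolism differed by pathway. Of 20 fatty acid oxidation genes, 1 of them tested through Drug_CN27 alone, 17 were higher with Drug_CN27, 12 by at least 2-fold, and 2 lower (relative median 0.81). ACADM, which starts the oxidation of medium chains, had 62.6 and 64.05 TPM with Drug_CN27, 16.5 and 15.6 TPM with Drug_0120 and 68.7 and 72.3 TPM with vehicle, and HADHB, of the trifunctional protein, had 194 and 179, 80.4 and 83.04 and 99.7 and 97.8 TPM. With Drug_CN27, ACADM stayed close under vehicle and HADHB lay above it. PDK4, which restrains pyruvate dehydrogenase, was the exception in size, with 115 and 99.99 TPM with Drug_CN27, 499 and 458 TPM with Drug_0120 and 18.3 and 17.8 TPM with vehicle (difference -2.14 ± 0.079), and ACAA1 was the other lower member.

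Of 31 glycolysis and hypoxia genes, 25 were higher with Drug_CN27 and 4 lower (relative median 0.53), with the liver-type phosphofructokinase PFKL at 144 and 160.03 TPM with Drug_CN27, 33.2 and 32.3 TPM with Drug_0120 and 221 and 226 TPM with vehicle and the hexokinase HK2 at 65.97 and 65.7, 15.97 and 14.3 and 67.5 and 63.4 TPM. HK2 with Drug_CN27 overlapped vehicle. The 4 lower genes were ADM, ANKRD37, NDRG1 and the glucose transporter SLC2A1. The respiratory chain followed: of 38 complex I genes 32 were higher and 2 lower, and of 35 genes of complexes III to V 28 were higher and 1 lower (24 and 4, and 18 and 6, with the median gene set equal). NDUFS5 of complex I had 272 and 307 TPM with Drug_CN27, 94.98 and 94.4 TPM with Drug_0120 and 361 and 360.4 TPM with vehicle, and CYC1, cytochrome c1, differed by 1.39 ± 0.077. Both stayed below vehicle with either compound. TCA cycle genes were 22 higher and 0 lower of 25 (relative median 0.12). With the median gene set equal they were 9 and 3, beside 5094 and 5125 of all 13335 genes, so the share higher was near that of all genes. ACO1 and IDH1 were higher by 1.44 ± 0.080 and 1.12 ± 0.057.

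Cholesterol and fatty acid synthesis, which share the SREBP regulators, went apart. Of 24 cholesterol synthesis genes, 15 were lower with Drug_CN27 and 5 higher (relative median -0.75; 18 and 3 after the GC correction). FDFT1, squalene synthase, had 139.7 and 138 TPM with Drug_CN27, 461 and 464 TPM with Drug_0120 and 356 and 357 TPM with vehicle (difference -1.73 ± 0.050), and INSIG1, which holds SREBP back when sterols are plentiful, had 17.6 and 15.2, 69.99 and 68.3 and 51.3 and 51.2 TPM (difference -2.01 ± 0.079). Both lay below vehicle with Drug_CN27 and above it with Drug_0120. The list as a whole was below vehicle with both compounds on the median. Relative to that of all genes tested, its median change from vehicle was -1.09 with Drug_CN27 and -0.60 with Drug_0120. The 5 higher members were TM7SF2 (2.55 ± 0.077) and LSS, in every scaling, and FDPS, ACAT2 and PMVK, which were not called higher in every scaling.

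Of 20 fatty acid synthesis genes tested, 2 through Drug_CN27 alone, 13 were higher with Drug_CN27 and 3 lower (relative median 0.47; 12 and 6 with the median gene set equal). The stearoyl-CoA desaturase SCD had 56.8 and 53.6 TPM with Drug_CN27, 20.8 and 19.9 TPM with Drug_0120 and 104 and 98.3 TPM with vehicle (difference 1.40 ± 0.067), and the desaturase FADS1 and ACSS2, which makes acetyl-CoA from acetate, differed by 1.34 ± 0.064 and 1.30 ± 0.075. SCD was below vehicle with both compounds. FASN, the synthase itself, was slightly lower (-0.21 ± 0.064), at 135 and 149 TPM with Drug_CN27, 169 and 159 TPM with Drug_0120 and 461 and 463 TPM with vehicle.

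The counterpart to these groups was a set of signal and stress genes that were lower with Drug_CN27. Of 35 immediate early and AP-1 genes tested, 3 of them passing through Drug_0120 alone, 31 were lower with Drug_CN27, 24 by at least 2-fold, and 2 higher (relative median -1.78). EGR1, a zinc finger factor induced by growth signals, had 73.2 and 75.8 TPM with Drug_CN27, 712 and 699 TPM with Drug_0120 and 42.4 and 43.5 TPM with vehicle (difference -3.23 ± 0.054). ZFP36, which destabilises messenger RNAs, had 47.02 and 49.01, 188 and 192 and 35.2 and 34.4 TPM (difference -1.96 ± 0.059). Drug_CN27 lay a little above vehicle in both and Drug_0120 far above. The AP-1 subunits FOSL1 (-3.05 ± 0.16), FOSB (-2.14 ± 0.081), JUND (-2.03 ± 0.063), JUNB (-1.68 ± 0.068), FOS (-1.66 ± 0.059) and JUN (-0.53 ± 0.060) were all lower. The 2 higher members were KLF10 (0.50 ± 0.073) and ZFP36L1 (0.30 ± 0.057), of which ZFP36L1 turned to -0.21 after the GC correction. CTGF and KLF2 were not called (95% intervals -0.50 to 0.0078 and -0.35 to 0.092).

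Feedback genes of the MAP kinase pathway were mixed. Of 20 MAP kinase phosphatase and Sprouty genes, 9 were lower with Drug_CN27, 6 by at least 2-fold, and 7 higher (11 and 2 with the median gene set equal). The phosphatase DUSP4 had 15.6 and 15.5 TPM with Drug_CN27, 122 and 119 TPM with Drug_0120 and 5.93 and 6.36 TPM with vehicle (difference -2.87 ± 0.072), and DUSP5 and the receptor inhibitor ERRFI1 differed by -2.83 ± 0.12 and -2.08 ± 0.066. In the list of matrix metalloproteinases and the urokinase system 15 of 21 were tested, 4 through each compound alone, with 6 higher and 7 lower (4 and 8 with the median gene set equal). MMP3, stromelysin 1, joined MMP1 and MMP10, at 0.0572 and 0.0671 TPM with Drug_CN27, 5.24 and 4.92 TPM with Drug_0120 and 0.0304 and 0.0905 TPM with vehicle.

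The bases upstream of MMP10 are shown because this gene is among the largest differences and holds a match to TGANTCA. That pattern is a loose form of the AP-1 element, in which N may be any base, and here N is A. The bases are chr11:102780629-102780878 of GRCh38.p14 (minus strand, RefSeq), 5′ to 3′, with the match to TGANTCA in capitals.
MMP10: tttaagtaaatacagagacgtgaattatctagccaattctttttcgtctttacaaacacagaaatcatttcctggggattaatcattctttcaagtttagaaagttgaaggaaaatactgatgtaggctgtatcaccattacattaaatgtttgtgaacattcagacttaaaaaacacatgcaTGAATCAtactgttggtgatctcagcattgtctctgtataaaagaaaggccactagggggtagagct
The match lies 60 bases before the start. TGANTCA occurs on either strand in 6.57% of the windows and in 4.4% of those of genes tested. It is in 0 of the 35 windows of the 26 tested immediate early genes that have a window of this length. No match says only that these letters are not in the 250 bases searched.

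Of 32 p53 targets, 26 were lower with Drug_CN27 and 1 was higher (relative median -1.01; 29 lower with the median gene set equal). GDF15, a secreted stress cytokine, had 1038 and 1164 TPM with Drug_CN27, 5087 and 5406 TPM with Drug_0120 and 142 and 143 TPM with vehicle (difference -2.25 ± 0.068). CDKN1A, the cell cycle inhibitor p21, had 692 and 716, 1762 and 1820.0 and 342 and 357 TPM (difference -1.35 ± 0.055). The polo-like kinase PLK2 had 3.56 and 3.88, 36.2 and 35.1 and 5.25 and 4.31 TPM (difference -2.96 ± 0.10). GDF15 and CDKN1A were above vehicle with both compounds, and PLK2 only with Drug_0120. MDM2, the ubiquitin ligase of p53 itself (-1.03 ± 0.11), and BBC3, which promotes cell death (-1.21 ± 0.073), were also lower, while FDXR, a mitochondrial reductase, was higher (0.38 ± 0.095, though not in every scaling) and BAX was not called (95% interval -0.24 to 0.16).

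All 8 tested of the 10 metallothionein and zinc exporter genes were lower with Drug_CN27, each by at least 2-fold (relative median -1.92). MT2A, a metal-binding protein, had 645 and 729.9 TPM with Drug_CN27, 1979 and 2246 TPM with Drug_0120 and 117 and 125 TPM with vehicle, and MT1G had 302 and 339, 1354 and 1579 and 48.4 and 57.6 TPM. The zinc exporter SLC30A1, which has no close copy, had 53.5 and 47.7 TPM with Drug_CN27, 175 and 159 TPM with Drug_0120 and 17.8 and 18.04 TPM with vehicle (difference -1.71 ± 0.078). The libraries formed 3 levels without overlap, with Drug_CN27 between the other groups. Metallothionein genes share sequence with close copies, so the split among them is uncertain.

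MT1H had the largest difference of the family (-3.40 ± 0.11), at 4.24 and 4.59 TPM with Drug_CN27, 51.5 and 61.6 TPM with Drug_0120 and 0.175 and 0.289 TPM with vehicle. Its upstream bases are shown for the metal response element, with matches to TGCACNC or TGCGCNC on either strand in capitals (chr16:56669564-56669813 of GRCh38.p14, plus strand, RefSeq).
MT1H: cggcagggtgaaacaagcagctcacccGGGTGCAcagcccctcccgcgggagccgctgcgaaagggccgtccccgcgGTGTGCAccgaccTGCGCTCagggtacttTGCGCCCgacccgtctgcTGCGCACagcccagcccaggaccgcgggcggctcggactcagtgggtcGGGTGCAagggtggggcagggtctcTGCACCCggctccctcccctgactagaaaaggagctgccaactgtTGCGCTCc
It holds 8 matches. Such letters are common, being found in 24.8% of all windows and in 31.6% of those of genes tested. They are in the windows of MT1H, MT1X, MT2A and SLC30A1, the 4 listed genes that have one. The genes whose upstream bases are shown were chosen after their values were seen.

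Clustered histone genes were lower with Drug_CN27, whereas the variant histones were higher. Of 44 clustered core histone genes tested, 7 of which passed through Drug_0120 alone, 30 were lower and 5 higher (relative median -0.92). HIST2H2BE, a histone H2B gene whose transcript can be polyadenylated, had 26.4 and 26.4 TPM with Drug_CN27, 74.5 and 75.2 TPM with Drug_0120 and 15.997 and 14.05 TPM with vehicle (difference -1.47 ± 0.077), and HIST1H4E differed by -2.43 ± 0.14. Most of these genes have near-identical copies and their main transcripts lack poly(A) tails, so single members are uncertain. Of 9 variants, 8 were higher and 0 lower (7 and 1 with the median gene set equal), with H2AFY2, a macroH2A, at 56.005 and 56.03 TPM with Drug_CN27, 11.7 and 11.5 TPM with Drug_0120 and 41.98 and 41.001 TPM with vehicle, and H2AFZ, which encodes H2A.Z, higher by 0.83 ± 0.058.

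Of 462 numbered zinc finger (ZNF) genes tested among 509, 2 through Drug_CN27 alone and 4 through Drug_0120 alone, and many of them repressors of transposable elements, 273 were lower with Drug_CN27 and 66 higher (relative median -0.60), or 350 and 42 with the median gene set equal. ZNF77 had 14.2 and 14.3 TPM with Drug_CN27, 69.8 and 72.8 TPM with Drug_0120 and 14.9 and 16.3 TPM with vehicle, and ZNF554 had 10.1 and 10.1, 43.95 and 45.7 and 6.38 and 6.21 TPM. ZNF77 with Drug_CN27 stayed next to vehicle. Of 84 cytosolic ribosomal protein genes, 47 were lower and 8 higher (71 and 3 with the median gene set equal), none by 2-fold under TPM; RPL4 had 940.2 and 933 TPM with Drug_CN27, 1698 and 1729 TPM with Drug_0120 and 1275 and 1287 TPM with vehicle. RPL4 lay below vehicle with Drug_CN27 and above it with Drug_0120. These genes have many processed copies, so single values are uncertain.

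Of 29 endoplasmic reticulum chaperones and unfolded protein response genes, 17 were lower with Drug_CN27 and 9 higher (relative median -0.52; 21 and 6 after the GC correction). HSPA5, the chaperone BiP, had 378 and 375 TPM with Drug_CN27, 552 and 553 TPM with Drug_0120 and 537 and 535 TPM with vehicle (difference -0.55 ± 0.050), and the co-chaperone DNAJB9 had 27.3 and 23.3, 58.4 and 54.4 and 9.32 and 8.41 TPM (difference -1.13 ± 0.096). HSPA5 with Drug_0120 was next to vehicle, and DNAJB9 was above vehicle with both. Cytosolic heat shock and chaperonin genes went the other way, with 19 of 25 higher and 5 lower (12 and 6 with the median gene set equal); the chaperonin subunit CCT5 was higher by 2.10 ± 0.060, and the 5 lower members included the co-chaperones DNAJB1 (-0.86 ± 0.054) and DNAJB4 (-0.93 ± 0.14). Of 31 proteasome subunits 24 were higher and 2, PSMA1 and PSMC1, were lower (20 and 6 with the median gene set equal), with PSMC3 at 210.3 and 226 TPM with Drug_CN27, 83.4 and 80.6 TPM with Drug_0120 and 263 and 275 TPM with vehicle.

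Of 19 circadian clock genes, 1 of them tested through Drug_CN27 alone, 9 were lower with Drug_CN27 and 3 higher, with the repressors BHLHE40 (3.34 and 3.63 TPM with Drug_CN27, 20.4 and 22.1 TPM with Drug_0120 and 0.872 and 0.853 TPM with vehicle) and NFIL3 (-1.95 ± 0.099) in the lead. Of 30 NRF2 targets, which respond to oxidants, 2 tested through Drug_CN27 alone and 1 through Drug_0120 alone, 18 were higher and 9 lower (16 and 11 with the median gene set equal), shares close to those of all genes. The carbonyl reductase CBR1 was higher (1.41 ± 0.072), and the sulfiredoxin SRXN1 (-0.77 ± 0.052) and GCLM, a subunit of the enzyme that starts glutathione synthesis (-0.75 ± 0.081), were lower. Of 26 interferon and antigen presentation genes tested among 36, 3 through Drug_CN27 alone and 1 through Drug_0120 alone, 18 were higher and 3 lower (13 and 6 with the median gene set equal), with IFI35 higher by 2.49 ± 0.10 and with B2M, the shared subunit of class I molecules (-0.93 ± 0.17), NLRC5 and ISG20 lower.

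Chromatin regulators were split by gene, with counts near those of all genes. Of 36 histone acetylation genes, 1 of them tested through Drug_CN27 alone, 18 were higher with Drug_CN27 and 7 lower (15 and 12 with the median gene set equal), the deacetylases HDAC2 and HDAC7 being higher (1.71 ± 0.074 and 1.60 ± 0.078) and the deacetylase SIRT1 lower (-1.10 ± 0.090). Of 37 remodeller subunits 21 were higher and 6 lower (17 and 13 with the median gene set equal), with SMARCA1 higher (2.35 ± 0.11) and CHD1 lower (-1.53 ± 0.14). Of 46 histone lysine methyltransferases and demethylases 21 were higher and 13 lower, but 14 and 22 with the median gene set equal; DOT1L, which methylates histone H3, was lower (-1.58 ± 0.056).

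Secreted factors had no majority that held in every scaling. Of 26 tested, 2 through Drug_CN27 alone and 1 through Drug_0120 alone, 12 were higher with Drug_CN27, 6 by at least 2-fold, and 11 lower, 8 by at least 2-fold (9 and 13 with the median gene set equal). CGA and GDF15, described above, and INHBA, an activin subunit (-2.81 ± 0.097), were among the lower ones. Among the higher ones CALCA, which encodes calcitonin, had 36.4 and 37.7 TPM with Drug_CN27, 3.12 and 4.26 TPM with Drug_0120 and 3.13 and 3.08 TPM with vehicle, and APLN, apelin, had 172 and 180.2, 21.2 and 22.6 and 501 and 502 TPM. CALCA lay above vehicle with Drug_CN27 alone, and APLN was below vehicle with both.

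Xenobiotic response genes were 8 higher and 8 lower of 17 tested, 2 passing through Drug_CN27 alone and 3 through Drug_0120 alone, and genes of the aryl hydrocarbon receptor were among both. The receptor gene AHR had 23.97 and 22.5 TPM with Drug_CN27, 78.4 and 67.4 TPM with Drug_0120 and 11.1 and 9.99 TPM with vehicle (difference -1.61 ± 0.093). Its target TIPARP, which limits the receptor, had 18.4 and 16.4, 125 and 114 and 13.9 and 12.8 TPM (difference -2.71 ± 0.086), and the cytochromes P450 CYP1A1 and CYP1B1 were also lower (-1.83 ± 0.055 and -1.64 ± 0.10). AHRR, the repressor of the receptor, was higher (1.11 ± 0.13), as was the quinone reductase NQO1 (0.94 ± 0.074), so these genes did not all go one way. Of the 14 NF-kB genes tested, RELB had 1.74 and 2.40 TPM with Drug_CN27, 10.7 and 11.99 TPM with Drug_0120 and 1.59 and 1.87 TPM with vehicle (difference -2.02 ± 0.13), while the inhibitor gene NFKBIA was higher (0.45 ± 0.065, though not in every scaling).

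Several lists did not separate the compounds, or their majority turned with the scaling. Mitochondrial ribosomal proteins were 39 higher and 14 lower of 78, but 19 and 34 with the median gene set equal, and ribosome biogenesis and MYC genes were 15 and 12 of 40, but 7 and 24. Lysosomal genes were 16 higher and 12 lower of 38, with 5 and 20 under that scaling. The BCL2 family was 7 higher and 7 lower of 17, and NF-kB genes, 1 of them tested through Drug_CN27 alone, 5 and 5 of 14 (6 and 10, and 3 and 7, with the median gene set equal). Commonly used reference genes were 10 higher and 4 lower of 17 (7 and 7 after the GC correction), and POLR2A, IPO8 and HPRT1 differed by 1.65 ± 0.089, 1.96 ± 0.089 and 1.52 ± 0.080, with IPO8 at 30.8 and 28.4 TPM with Drug_CN27, 7.20 and 6.52 TPM with Drug_0120 and 22.7 and 20.9 TPM with vehicle.

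Genes that the compounds moved in opposite directions from vehicle were counted last. Both changes are measured against the same vehicle libraries, so they are not independent. With limma adjusted p under 0.05 for each change and for the difference, 1228 genes were above vehicle with Drug_CN27 and below it with Drug_0120 (9.21% of those tested), and 219 were below it with Drug_CN27 and above it with Drug_0120 (1.64%). Setting the median gene equal gave 678 and 569, so the imbalance between these counts rests on the scaling. In every one of the 5 scalings 430 and 195 genes remained. Most of the changes were small: 18 and 3 genes changed at least 2-fold in both directions, and all of these kept their opposite calls in every scaling.

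Among the genes above vehicle with Drug_CN27 and below it with Drug_0120, SAMD11, CLGN, PSPH and the readthrough gene RBM14-RBM4 (uncertain) led with PROS1, C5, KCNAB3, ZDHHC2, SHC2 and CBSL. PROS1, the anticoagulant protein S, had 28.7 and 25.1 TPM with Drug_CN27, 2.14 and 2.18 TPM with Drug_0120 and 11.5 and 10.7 TPM with vehicle (difference 3.14 ± 0.098). C5, a complement component, had 23.5 and 21.01, 2.30 and 1.80 and 11.01 and 9.28 TPM (difference 2.94 ± 0.12), and KCNAB3, a potassium channel subunit, 14.6 and 15.6, 1.26 and 1.15 and 6.95 and 6.41 TPM (difference 2.86 ± 0.096). In all 3 the groups did not overlap, and vehicle lay in the middle by the rule that chose these genes. The palmitoyltransferase ZDHHC2 and the signalling adaptor SHC2 differed by 2.57 ± 0.12 and 2.63 ± 0.094. CBSL (221 and 254 TPM with Drug_CN27, 47.3 and 28.5 TPM with Drug_0120 and 105 and 105 TPM with vehicle) is a near-identical copy of CBS, cystathionine synthase, and reads cannot be told apart between them.

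Among the genes below vehicle with Drug_CN27 and above it with Drug_0120, AKAP12, a scaffold of protein kinase A, had 9.38 and 7.69 TPM with Drug_CN27, 94.5 and 86.95 TPM with Drug_0120 and 21.6 and 19.5 TPM with vehicle (difference -3.27 ± 0.10). SLC47A2, an exporter of organic cations, had 2.75 and 2.45, 16.2 and 16.99 and 6.31 and 6.16 TPM (difference -2.29 ± 0.093), and the laminin subunit LAMB3 4.04 and 4.74, 26.9 and 26.6 and 7.99 and 7.72 TPM (difference -2.37 ± 0.094). Vehicle again lay between the compounds by that rule, and the groups did not overlap. The secreted factor METRNL (-2.74 ± 0.087), the immediate early genes PHLDA1 (-3.24 ± 0.091) and IER3 (-1.68 ± 0.10), AGPAT5 of phospholipid synthesis (-2.47 ± 0.076), the natriuretic peptide NPPC (-1.85 ± 0.095), the splicing regulator PTBP2 (-1.32 ± 0.10) and the centrosomal gene CEP72 (-1.42 ± 0.091) completed the 10.

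**Figure D5:**
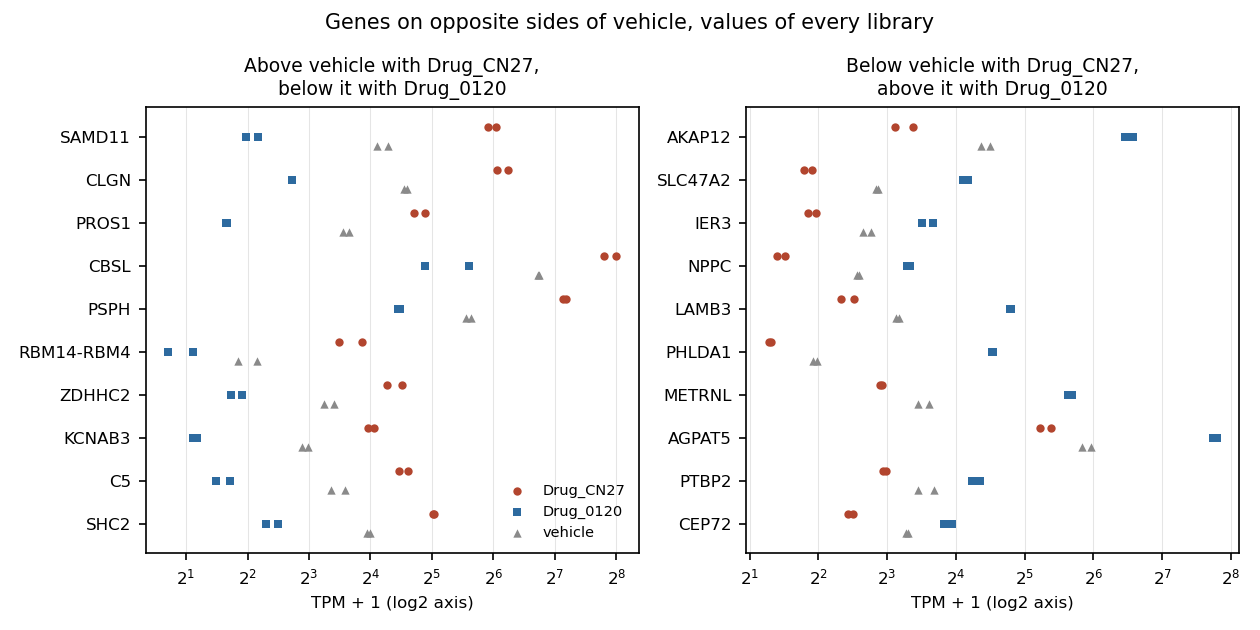
Level of every library, as TPM + 1 on a log2 axis, for the 10 leading genes above vehicle with Drug_CN27 and below it with Drug_0120 (left) and the 10 in the reverse case (right); circles are Drug_CN27, squares Drug_0120 and triangles vehicle. Vehicle lies between the compounds in every row by the rule that chose these genes. An example is SAMD11, whose log2 changes from vehicle were 1.78 with Drug_CN27 and -2.12 with Drug_0120.

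By list, opposite movers of the first kind were 12 of 37 ATF4 targets, 4 of 15 serine, glycine and folate enzymes, 5 of 20 fatty acid oxidation genes, 4 of 16 lineage factors, 4 of 20 luminal genes and 7 of 31 proteasome subunits, beside 9.21% of all genes. With the median gene set equal these lists held 8, 2, 5, 3, 4 and 1 in that order, beside 5.08% of all genes. Those of the second kind were 5 of 35 immediate early genes, 4 of 24 cholesterol synthesis genes and 8 of 84 ribosomal protein genes, beside 1.64% of all genes, or 7, 5 and 17 beside 4.27% under that scaling. In the cell cycle lists 0 of 52 G1/S genes moved in opposite directions, and 1 of 57 G2/M genes did so, KIF20B, which lay below vehicle with Drug_CN27 (-0.43) and above it with Drug_0120 (2.15).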

How the data were processed

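RNA of 22Rv1 cells was sequenced in 6 libraries, 2 per group. The authors deposited TPM per gene in a single table, made with STAR and StringTie on hg19 per the submitters' processing notes. Versions, annotation and strand setting are not stated there or in the labels. Of 20315 rows, 18 were the Y copies of pseudoautosomal genes and were dropped, and 27 symbols that a spreadsheet had turned into dates were restored from their identifiers. TPM keeps no depth, so depth is unknown and no counting interval is given.

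A gene was tested when 2 or more of the 4 treated libraries reached 1 TPM. Differences of log2(TPM + 1) came from limma 3.58.1 (R 4.3.3) with an empirical Bayes trend, with all 6 libraries in a fit of 3 groups and no replicate block. P-values were adjusted by Benjamini-Hochberg over the 13335 genes, with a threshold of 0.05. The fit was tested on simulated data. The labels do not say that replicates are separate cultures. P-values then reflect only how far these libraries differ among themselves, which may be technical. The GC content is that of GENCODE 29 transcripts. Upstream bases are from RefSeq (GRCh38.p14).

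Alternatives were median-of-ratios, quantile and equal-sum scaling, a GC correction (loess, span 0.3), pseudocounts of 0.1 and 5, no filter and a filter of 5 TPM, the treated libraries alone, a replicate block, and each library left out. Equal replicate numbers were not used as pairs in the main fit, since no label says that they are and only 2 numbers exist. In each group replicate 1 had more TPM outside the table than replicate 2. The shares were 19.6% and 18.3% with Drug_CN27, 28.8% and 28.0% with Drug_0120 and 19.3% and 18.1% with vehicle. Whether equal numbers share a batch was not tested.

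The members and lists were chosen with earlier results of these data known. Named genes were the 12 largest differences each way among called genes with non-overlapping groups and a mean of at least 5 TPM in the treated libraries, the 10 leading opposite movers each way with a mean of at least 5 TPM, up to 4 leading members per list, the linker histones, KLK3, MYC, MKI67, ATF4, DDIT3, CDKN1A and GDF15. Genes named as exceptions to a list's majority, the AP-1 subunits, ASNS, JDP2, SRXN1, GCLM, SIRT1, CHD1, DOT1L, INHBA, CCNB1, FASN, MDM2, BBC3, BAX, RELB, NFKBIA and the genes of the aryl hydrocarbon receptor were chosen after their values were seen. Some genes are in several lists. Some genes that the rule chose are not reported here.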

Additional observations from a re-analysis of the deposited data

How the results depend on the processing

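Of 245 genes chosen by the rule, 244 were called and 240 kept their call and direction in all 5 scalings. The rule took nearly all of them from genes already called, so both counts follow largely from that choice. Over all genes, 4391 of 6905 higher calls and 3147 of 3196 lower calls were kept in all 5 scalings. MYC turned to -0.023 with the GC correction. No median of a list beyond 0.2 changed sign in any of the 16 settings. Counts moved with the scaling. Genes lower with Drug_CN27 were 5125 with median of ratios, 5182 with quantile normalization and 5570 with the GC correction. At least 2-fold higher genes were 1381 with quantile normalization, 1355 with the GC correction and 1227 with a pseudocount of 5. At least 2-fold lower genes were 997 with median of ratios, 1151 with quantile normalization, 1054 with the GC correction and 264 with a pseudocount of 5. Genes above vehicle with Drug_CN27 and below it with Drug_0120 were 678, 662 and 797 under the 3 scalings in that order, and those in the reverse case 569, 626 and 766. Their causes were not tested. Leaving out each library in turn gave 887 to 1124 opposite genes of the first kind and 137 to 202 of the second, with 137 without vehicle replicate 1 and 141 without vehicle replicate 2.

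A replicate block gave 7238 higher and 3524 lower genes, and 1460 and 299 opposite ones; same-numbered libraries deviated together at r = 0.107 for the 2 compounds, 0.168 for Drug_CN27 with vehicle and 0.173 for Drug_0120 with vehicle. Depth is unknown, so the precision of low genes cannot be stated.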
